A study of Mus musculus with 12 samples.

Results

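Cholesterol genes were followed in the hippocampus as 2 lists: synthesis and uptake, from the mevalonate pathway enzymes to the sterol sensors, and efflux and turnover, from the sterol transporters to the lipoproteins and their receptors. The lists name 41 genes, 23 for synthesis and uptake and 18 for efflux and turnover. A gene entered when a probe set on the array carried its symbol and no other, and its probe set with the highest mean over the 12 arrays stood for it. On that rule 31 of 41 genes were measured, 17 of 23 and 14 of 18, out of 8251 genes on the array. Pmvk, Acat2, Insig2, Srebf2, Scap, Stard4, Abcg4, Cyp46a1, Nr1h2 and Soat1 were not analysed here.

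Expression was measured on 12 Affymetrix MG-U74A arrays in 4 groups of 3: control saline, control kainate, mutant saline and mutant kainate. Kainate, an agonist of glutamate receptors that evokes seizures, was injected intraperitoneally at 20 mg/kg, the other mice received saline, and tissue was taken 1 h later. The mice were littermates of both sexes, 5 to 6 weeks old and housed singly. RNA of 3 animals was pooled for each array, which makes the pool the replicate and puts 9 animals in a group. The mutants had lost CREB and CREM, transcription factors that bind cAMP response elements, according to the title of the series. The labels do not give the alleles, name a driver or say more of the controls than that word. In bulk tissue, fewer cells of a type and less RNA per cell cannot be told apart.

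Some facts of the arrays bear on the values below. The spread of levels on the control kainate replicate 3 array was narrower, with an interquartile range of 3.74 (log2) against 4.40 to 4.61 on the other 11 arrays. The replicate 1 arrays of all 4 groups deviated from their group means together (correlations of 0.368 to 0.848 across probe sets). Among the 31 members, 10 stood on the same side of the mean of replicates 2 and 3 on the replicate 1 array in all 4 groups, 5 higher and 5 lower, the widest gap being a mean of -0.95 for Npc1. The 3 Creb1 probe sets differed between genotypes by -0.09, -0.12 and -0.11 and those of Crem by -0.29 and -0.25, without passing (adjusted p = 0.141 or more). Their positions relative to the disrupted exons are not given in the sources used here, and they check no genotype label. The brighter Fos probe set, an activity marker, rose by 4.77 in controls and 5.92 in mutants after kainate, the direction its treatment labels call for. Mutant minus control, it stood at -1.16 under saline (adjusted p = 0.00809 in limma) and -0.02 under kainate. The kainate rise did not differ between genotypes at the threshold (interaction adjusted p = 0.333 in limma).

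Cells build cholesterol from acetyl units through the mevalonate pathway, and SREBP transcription factors switch its enzymes on when membrane sterol is low. Surplus sterol is oxidised to oxysterols, which activate LXR receptors and with them the transporters that load cholesterol onto apolipoproteins. The brain is nearly closed to cholesterol in blood, so it makes its own, and astrocytes pass it to neurons on particles that carry apolipoprotein E.

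The genotype comparison asked which of these genes differed between mutants and controls, averaged over saline and kainate (6 against 6 arrays). The synthesis list leaned lower and the efflux list leaned higher in the mutants, and 1 member of each passed the threshold. Cyp51, the lanosterol demethylase, fell by 0.41 on the log2 scale, and Abca1, the transporter that hands cholesterol to lipid-poor apolipoproteins, rose by 0.73. Among synthesis genes 1 of 17 was called lower and 0 higher, where 0.193% of all probe sets were called lower. Among efflux genes 1 of 14 was called higher and 0 lower, where 0.419% of all probe sets were called higher. At an unadjusted p under 0.05 stood 9 of 31 members, 4 higher and 5 lower, against 5.98% of all probe sets. Calls are by limma with Benjamini-Hochberg adjustment over 12422 probe sets at 0.05, differences are mutant minus control on the log2 scale, and errors are standard errors (SE) of that fit.

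In the synthesis list 16 of 17 differences were negative, with a median of -0.23. In the efflux list 11 of 14 were positive, with a median of 0.17. Over all 12422 probe sets 8221 differences were negative, with a median of -0.06, so that a negative sign was common on these arrays. Among the 6211 probe sets above the median level the lean was the other way, with 3717 positive and a median of 0.04. Rescaling the arrays left the lists leaning as before: 17 of 17 synthesis differences were negative and 11 of 14 efflux differences positive after quantile normalisation, and 16 and 13 after centring each array on its median. After centring neither Cyp51 (-0.37, adjusted p = 0.0589) nor Abca1 (adjusted p = 0.066) passed, and 0 members of either list were called. The calls over all probe sets split 52 higher to 24 lower, 42 to 33 after quantile normalisation and 42 to 9 after centring.

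**Figure D1:**
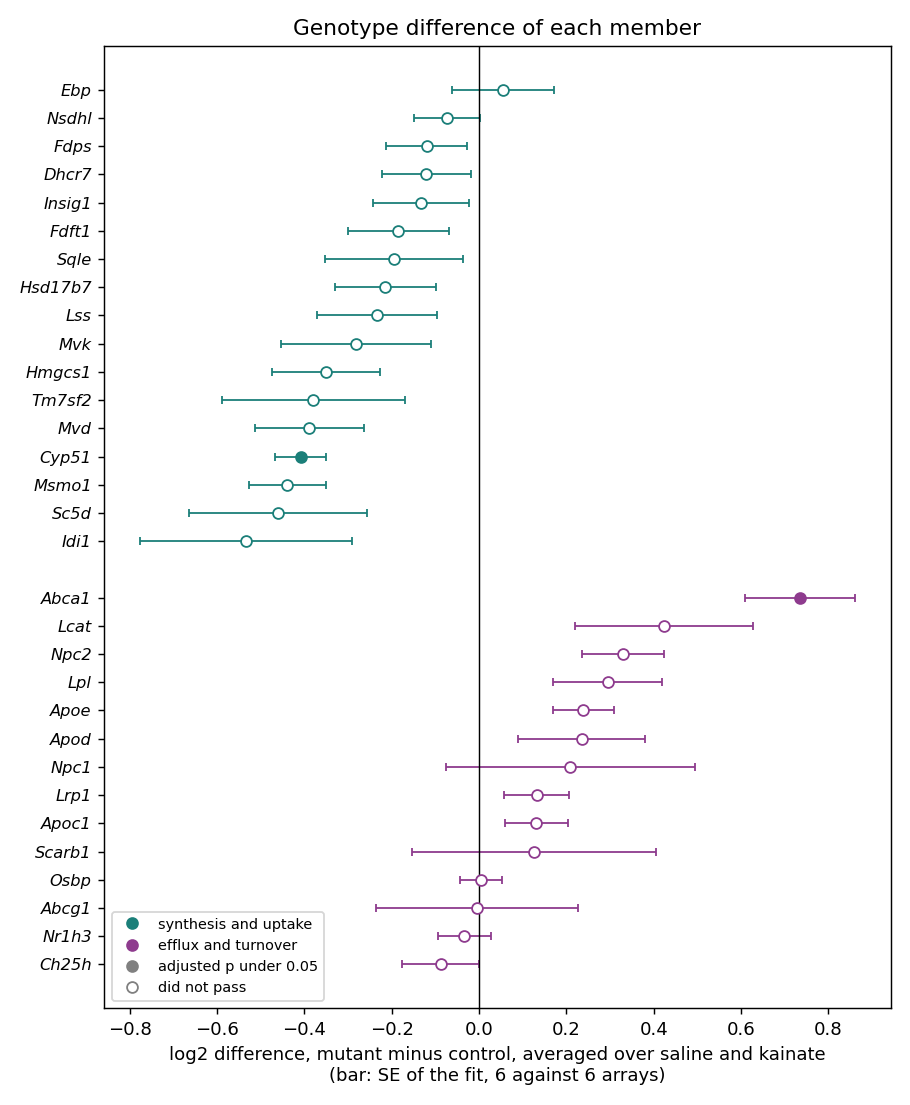
Genotype difference of each of the 31 members, as log2 mutant minus control averaged over saline and kainate on the x axis, with the SE of the fit as bars and filled points for adjusted p under 0.05. Of the 17 synthesis and uptake genes all but Ebp lie left of 0, and of the 14 efflux and turnover genes 11 lie right of it. Cyp51 (-0.41) and Abca1 (0.73) are the filled points.

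Cyp51 removes a methyl group from lanosterol, the first sterol of the pathway. Its log2 levels were 6.41, 6.64 and 6.58 on the control saline arrays and 6.74, 6.53 and 6.61 on the control kainate arrays. They were 6.21, 6.21 and 6.20 in mutant saline and 6.12, 6.17 and 6.13 in mutant kainate. Every mutant array lay below every control array, which held for this member alone and for 0.242% of all probe sets. The averaged difference was -0.41 (SE 0.06, adjusted p = 0.0106), a control level 1.33 times that of the mutants. Its call held with each array left out in turn (adjusted p = 0.00953 to 0.0467). Across all alternatives it gave adjusted p values between 0.000104 and 0.108. Under kainate alone the difference was -0.48 (SE 0.08, adjusted p = 0.0438), the sole call among the 17 synthesis genes there (background 0.137% lower). That call was lost on leaving out any array other than control saline replicate 1 (adjusted p = 0.0558 to 0.23). Under saline alone it was -0.33 (SE 0.08, adjusted p = 0.432).

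Msmo1, the methylsterol monooxygenase that acts on the C4 methyl groups of the sterols made by Cyp51, stood at 9.30, 9.48 and 9.53 in control saline and 9.50, 9.45 and 9.07 in control kainate. The mutant arrays read 8.74, 8.94 and 8.93 under saline and 8.96, 9.15 and 8.99 under kainate. Under saline the groups did not overlap, while under kainate the control replicate 3 array reached into the mutant range. Averaged over treatments, the difference was -0.44 (SE 0.09, adjusted p = 0.061) and did not pass. Without the control kainate replicate 3 array it was -0.51 and passed (adjusted p = 0.00842), in a range of 0.000142 to 0.32 across alternatives.

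Idi1, the isomerase that makes the second of the isoprene building blocks, had the lowest averaged difference, at -0.53 (SE 0.24, adjusted p = 0.63). Its levels were 8.48, 9.45 and 9.17 in control saline and 8.64, 9.08 and 8.48 in control kainate. They were 7.75, 8.89 and 8.74 in mutant saline and 7.83, 8.67 and 8.24 in mutant kainate. The replicate 1 arrays of all 4 groups were below the means of replicates 2 and 3, and the groups overlapped under both treatments.

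Sc5d, the desaturase of the last steps of the pathway, stood at 6.14, 6.77 and 6.50 in control saline, and at 6.55, 7.10 and 5.92 in control kainate. Mutant arrays read 5.89, 6.13 and 6.08 under saline and 5.88, 6.50 and 5.75 under kainate. The saline groups were apart by a narrow gap and the kainate groups overlapped. Its averaged value was -0.46 (SE 0.20, adjusted p = 0.63), and a second Sc5d probe set stood at -0.27.

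Hmgcs1, the synthase that makes HMG-CoA, stood at 10.63, 10.42 and 10.47 in control saline and 10.89, 11.05 and 10.42 in control kainate. In the mutants it read 10.28, 9.996 and 10.03 under saline and 10.79, 10.36 and 10.31 under kainate. All mutant saline arrays were below all control saline arrays, while under kainate the groups overlapped. The averaged difference was -0.35 (SE 0.12, adjusted p = 0.501).

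The other early steps also had negative values that did not pass. They were -0.28 for the mevalonate kinase Mvk, -0.39 for the decarboxylase Mvd, -0.12 for the farnesyl diphosphate synthase Fdps and -0.19 for the squalene synthase Fdft1. A second Mvk probe set stood at 0.05, on the other side of 0. For the squalene epoxidase Sqle and for Lss, the cyclase that closes the sterol rings, the differences were -0.19 and -0.23. Among the later enzymes they were -0.38 for the reductase Tm7sf2, -0.07 for Nsdhl, -0.21 for Hsd17b7, 0.06 for the isomerase Ebp and -0.12 for Dhcr7. Insig1, the membrane protein that holds the SREBP complex back, stood at -0.13. Its highest level was 4.04 on the control kainate replicate 3 array, against 3.35 to 3.57 on the others.

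**Figure D2:**
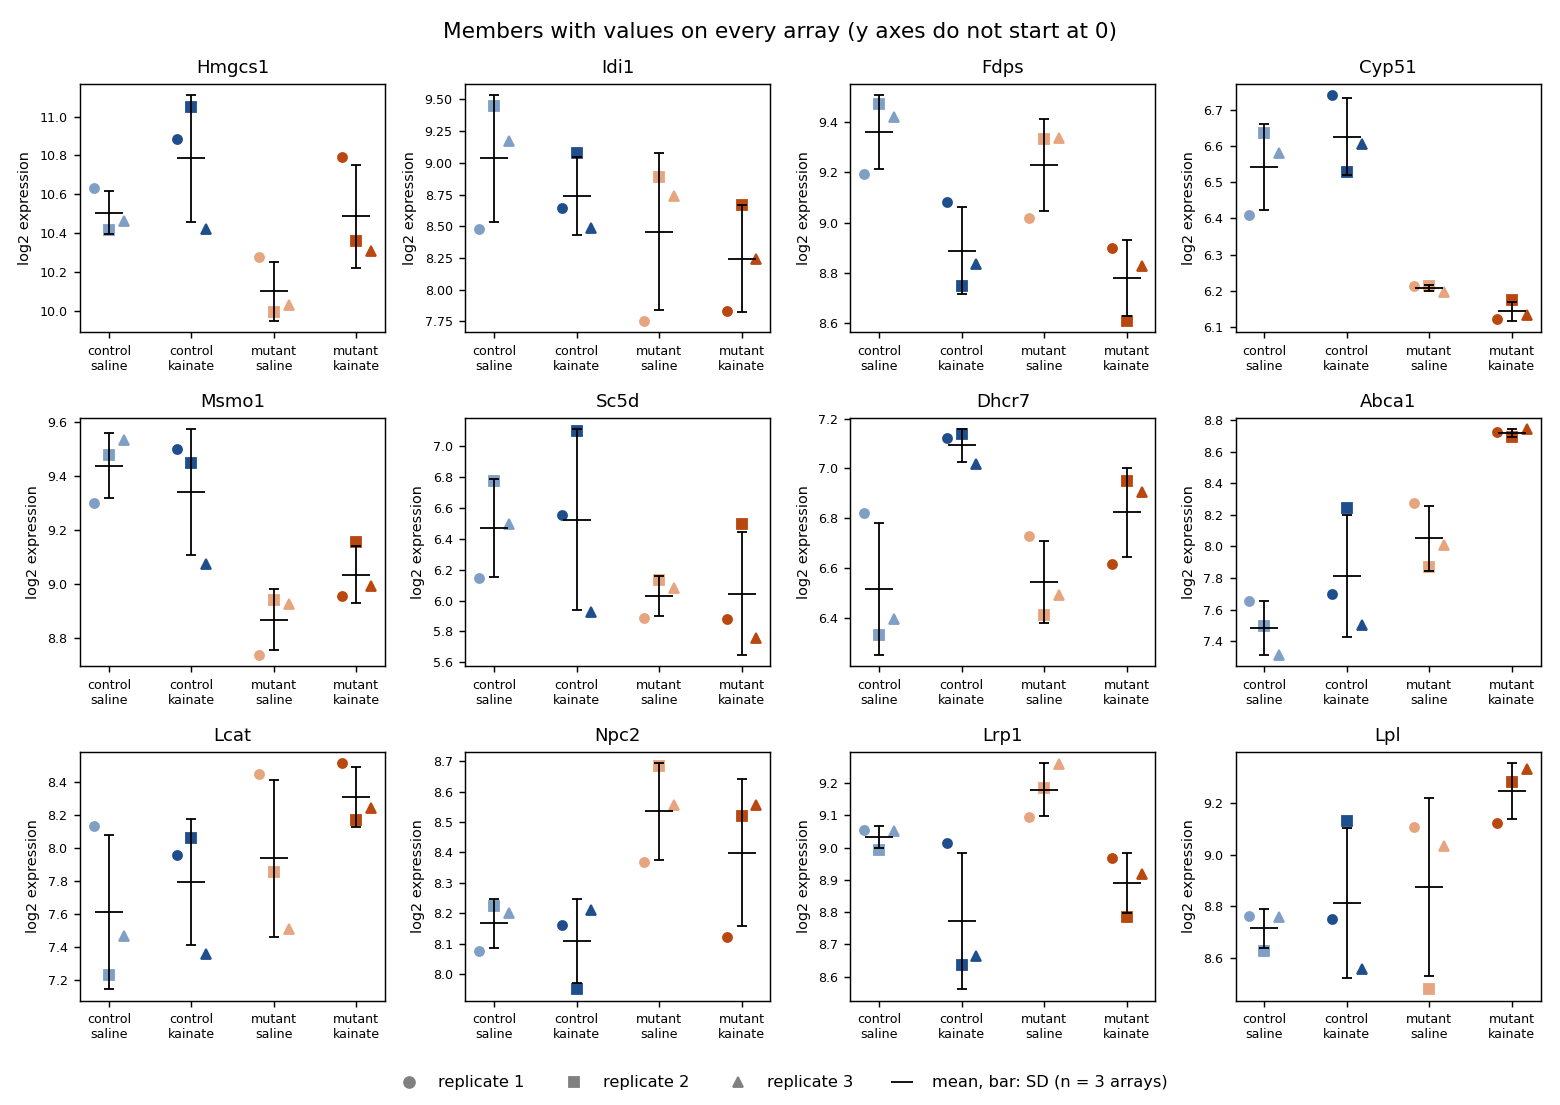
Log2 expression (y axes, which do not start at 0) of 12 members on every array in the 4 groups, with symbols for the replicate numbers, a line for the group mean and a bar for the SD of 3 arrays. The mutant points of Cyp51 lie at 6.21 or lower and its control points at 6.41 or higher. The mutant kainate points of Abca1 lie between 8.69 and 8.74, above its 9 other points.

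The first bases upstream of the start are shown for 4 members. Cyp51 and Abca1 passed in the averaged genotype comparison. Msmo1 had the next lowest adjusted p among synthesis genes, and Hmgcs1 stands at the entry to the pathway, but neither passed. A part of any motif in the differences above was not tested. Each line gives 250 bases before the RefSeq start (GRCm38.p6), 5′ to 3′ on the strand of the gene. Capitals mark the motifs searched on both strands.
Hmgcs1, chr13:119690101-119690350, plus strand: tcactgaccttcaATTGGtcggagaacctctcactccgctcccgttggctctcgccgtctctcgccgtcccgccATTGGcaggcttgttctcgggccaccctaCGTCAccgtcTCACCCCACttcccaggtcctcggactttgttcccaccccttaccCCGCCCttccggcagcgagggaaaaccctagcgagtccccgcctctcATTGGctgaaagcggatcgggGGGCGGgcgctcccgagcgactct
Cyp51, chr5:4104698-4104947, minus strand: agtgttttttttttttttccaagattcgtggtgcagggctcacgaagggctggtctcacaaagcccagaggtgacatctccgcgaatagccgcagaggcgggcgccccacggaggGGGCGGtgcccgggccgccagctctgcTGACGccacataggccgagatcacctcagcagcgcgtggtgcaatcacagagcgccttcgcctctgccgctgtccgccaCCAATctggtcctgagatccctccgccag
Msmo1, chr8:64733579-64733828, minus strand: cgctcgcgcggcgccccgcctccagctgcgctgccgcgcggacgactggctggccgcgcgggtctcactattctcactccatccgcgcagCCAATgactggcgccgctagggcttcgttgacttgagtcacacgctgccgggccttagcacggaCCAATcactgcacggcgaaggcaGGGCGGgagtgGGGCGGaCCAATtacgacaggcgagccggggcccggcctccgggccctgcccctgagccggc
Abca1, chr4:53159896-53160145, minus strand: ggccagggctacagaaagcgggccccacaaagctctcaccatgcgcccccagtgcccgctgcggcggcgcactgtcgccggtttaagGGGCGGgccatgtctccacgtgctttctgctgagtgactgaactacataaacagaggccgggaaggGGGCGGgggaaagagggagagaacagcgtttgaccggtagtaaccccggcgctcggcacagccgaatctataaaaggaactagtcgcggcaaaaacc
In the Cyp51 window the core of a cAMP response element, TGACG, begins 108 bases before the start, between an Sp1 box (135 bases) and an NF-Y box (29 bases). Hmgcs1 holds a sterol response element 137 bases before the start, next to such a core on the other strand at 147 bases. Msmo1 holds 3 NF-Y and 2 Sp1 boxes, and Abca1 2 Sp1 boxes.

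A RefSeq window of 250 bases before to 50 after the start was at hand for 23 of the 31 members, 14 for synthesis and 9 for efflux. The motifs were the NF-Y box CCAAT, the Sp1 box GGGCGG, the core TGACG, the full element TGACGTCA (which contains the core), the sterol response element TCACNCCAC and the DR4 site of LXR, which is AGGTCA, any 4 bases and AGGTCA again. The NF-Y box lay in 14 of 14 synthesis genes and 3 of 9 efflux genes, and in 41.1% of 27025 genes. The Sp1 box lay in 14 and 4 of them, and in 38.2% of all genes. The core lay in 7 synthesis genes (Hmgcs1, Cyp51, Nsdhl, Hsd17b7, Ebp, Sc5d and Insig1) and in 1 efflux gene, Ch25h, against 23.0% of all genes. Ch25h also held the full element, which 2.03% of all genes hold and no synthesis gene did. The sterol response element was found in Hmgcs1 alone of these 23 (1.44% of all genes), and the DR4 site in 0 (0.0148%). With the exact DR4 letters in only 4 of 27025 genes, their absence here carries no information. These are matches of exact letters in a short window, and forms of a site that differ from these letters were not searched. No match says only that the letters are not there.

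In the efflux list Abca1 stood at 7.65, 7.49 and 7.31 in control saline and 7.70, 8.25 and 7.50 in control kainate. The mutant arrays read 8.28, 7.87 and 8.01 under saline and 8.72, 8.69 and 8.74 under kainate. Within each treatment all mutant arrays were above all control arrays. Averaged over treatments, the difference was 0.73 (SE 0.13, adjusted p = 0.0293), or 1.66-fold, with 0.57 under saline (SE 0.18, adjusted p = 1) and 0.90 under kainate (SE 0.18, adjusted p = 0.0889). The averaged call was lost when any 1 of 9 arrays was left out: control saline replicate 2 or 3, control kainate replicate 1, or any of the 6 mutant arrays (adjusted p = 0.0536 to 0.0963). Adjusted p values across all alternatives spanned 0.00312 to 0.242. A second Abca1 probe set gave 0.33 (adjusted p = 0.63).

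Lcat, which esterifies cholesterol on lipoproteins, stood at 8.13, 7.23 and 7.47 in control saline and 7.96, 8.06 and 7.36 in control kainate. In the mutants it read 8.45, 7.85 and 7.51 under saline and 8.52, 8.17 and 8.24 under kainate. The kainate groups did not overlap, and the saline groups did. Its averaged value was 0.42 (SE 0.20, adjusted p = 0.63), and a second probe set stood at -0.04.

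Npc2, the lysosomal protein that carries sterol out of digested lipoproteins, stood at 8.07, 8.23 and 8.20 in control saline and 8.16, 7.95 and 8.21 in control kainate. Mutant arrays read 8.37, 8.68 and 8.56 with saline and 8.12, 8.52 and 8.56 under kainate. All mutant saline arrays were above all control saline arrays, and under kainate the mutant replicate 1 array lay within the control range. The averaged difference was 0.33 (SE 0.09, adjusted p = 0.265). Npc1, its partner in the lysosomal membrane, stood at 0.21.

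Lpl, the lipase that empties triglyceride from lipoproteins, stood at 8.76, 8.63 and 8.76 in control saline and 8.75, 9.13 and 8.56 in control kainate. In the mutants it read 9.11, 8.48 and 9.03 under saline and 9.12, 9.28 and 9.33 under kainate. The groups overlapped under both treatments, and the averaged difference was 0.29 (SE 0.13, adjusted p = 0.63). Among the carriers and receptors Apoe, the main apolipoprotein of the brain, stood at 0.24 (SE 0.07, adjusted p = 0.285), Apod at 0.24, Apoc1 at 0.13, the Apoe receptor Lrp1 at 0.13 and the lipoprotein receptor Scarb1 at 0.13. A second, dimmer Apoe probe set stood at -0.12. The oxysterol-binding protein Osbp (0.01), the transporter Abcg1 (-0.01), the LXR gene Nr1h3 (-0.03) and the 25-hydroxylase Ch25h (-0.09) were near or below 0. None of these passed in limma.

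Under saline alone 0 of 31 members passed in limma, where 0.137% of all probe sets did, and 7 had an unadjusted p under 0.05 (2.57% of all probe sets). The arrays did not overlap for 7 of 17 synthesis genes, lower in mutants (Hmgcs1, Mvk, Mvd, Sqle, Cyp51, Msmo1 and Sc5d), where 3.24% of all probe sets were so placed. They did not overlap for 4 of 14 efflux genes, higher in mutants (Abca1, Apoe, Npc2 and Lrp1), where 3.85% were. Under kainate alone the sole call among the 31 was that of Cyp51, where 0.354% of all probe sets passed, and 4 members had an unadjusted p under 0.05 (4.96%). There 2 synthesis genes, Cyp51 and Dhcr7, lay lower without overlap (background 4.97%), and 2 efflux genes, Abca1 and Lcat, higher (background 4.03%).

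The saline and the kainate arrays are different animals, so the genotype difference was measured separately in each. It was negative in both for 15 of 17 synthesis genes, positive in both for Ebp and of opposite sign for Dhcr7. Of all probe sets 52.7% were negative in both, and 23.8% of those above the median level. It was positive in both for 10 of 14 efflux genes, negative in both for 0 and opposite for Abcg1, Nr1h3, Osbp and Ch25h. Of all probe sets 21.0% were positive in both, and 38.5% of those above the median level. Under kainate the number of all probe sets with a positive difference depended on the scale, at 4472 as deposited and 6146 with centred arrays. The median of the synthesis list was -0.28 with saline and -0.27 with kainate, and the efflux medians 0.16 and 0.19, beside -0.03 and -0.08 over all probe sets.

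**Figure D3:**
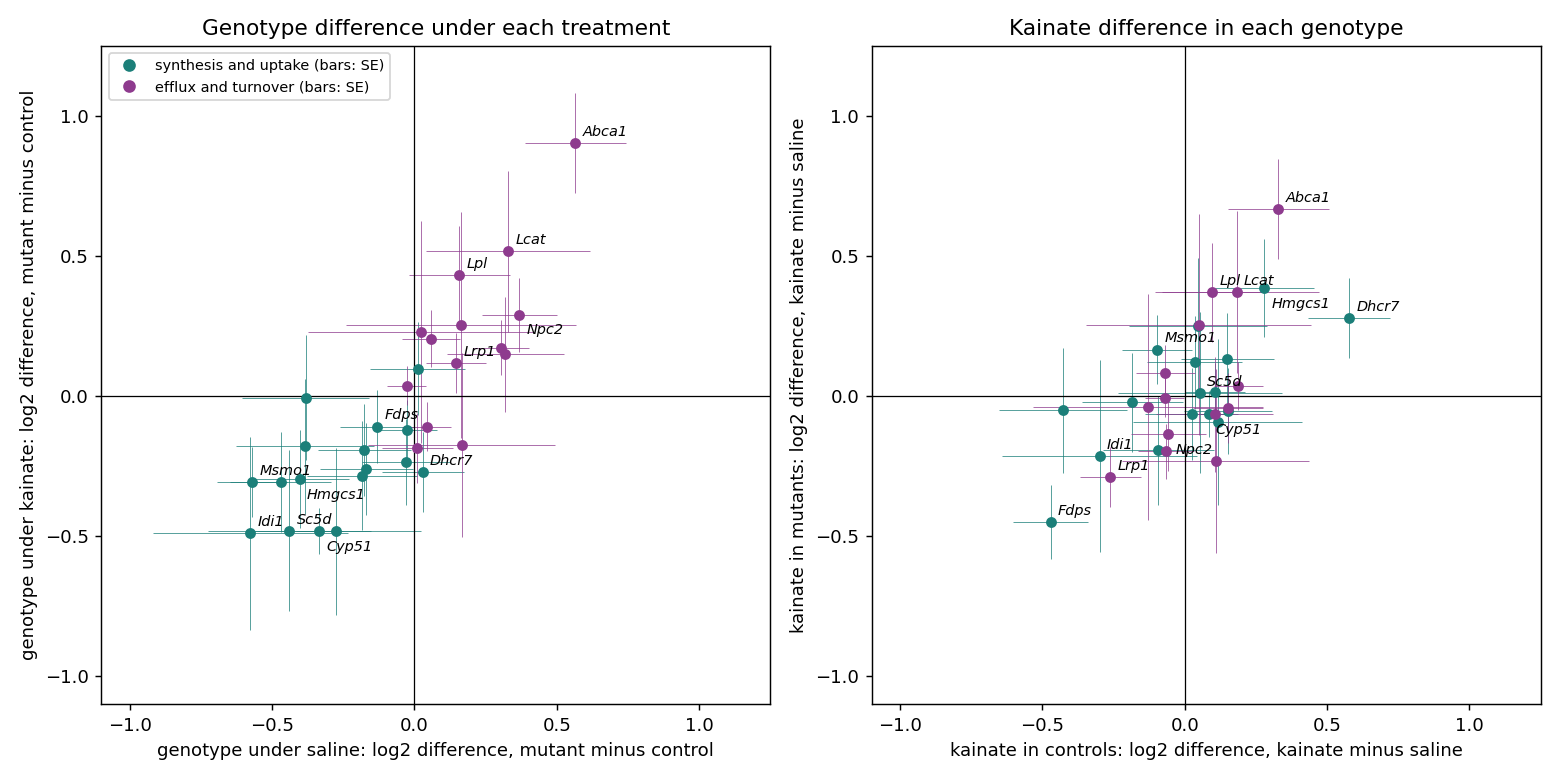
Log2 differences of the 31 members with SE bars. In the left panel the genotype difference under saline (x axis) is set against that under kainate (y axis): 15 of 17 synthesis genes lie at the lower left and 10 of 14 efflux genes in the upper right. In the right panel the kainate difference in controls (x axis) is set against that in mutants (y axis), where Fdps (-0.47 and -0.45) lies low on both axes and the lists spread around 0.

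The mean log2 level of each list on each array shows the same split. The synthesis mean was 6.77 ± 0.06 in control saline, 6.78 ± 0.16 in control kainate, 6.51 ± 0.02 in mutant saline and 6.52 ± 0.05 in mutant kainate (SD, n = 3). The efflux mean was 7.48 ± 0.03, 7.52 ± 0.06, 7.67 ± 0.04 and 7.72 ± 0.06 in the same order. On the deposited scale no mutant array reached the control range in either list. The synthesis means were 6.60 to 6.91 in controls and 6.48 to 6.58 in mutants, and the efflux means 7.45 to 7.57 and 7.62 to 7.78. The lowest control synthesis mean was that of control kainate replicate 3, the array with the highest median level (4.47 against 4.23 to 4.36). Centring arrays on their medians would lower that mean the most, so the separation of the synthesis means depends on the scale. Synthesis minus efflux was -0.85 to -0.63 on control arrays and -1.29 to -1.11 on mutant arrays. Leaving out the control kainate replicate 3 array, whose synthesis mean was the lowest control value, gave 17 of 17 negative synthesis differences with a median of -0.34. With the replicate 2 and 3 arrays alone, 16 of 17 synthesis differences were negative (median -0.25) and 12 of 14 efflux differences positive (median 0.22).

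**Figure D4:**
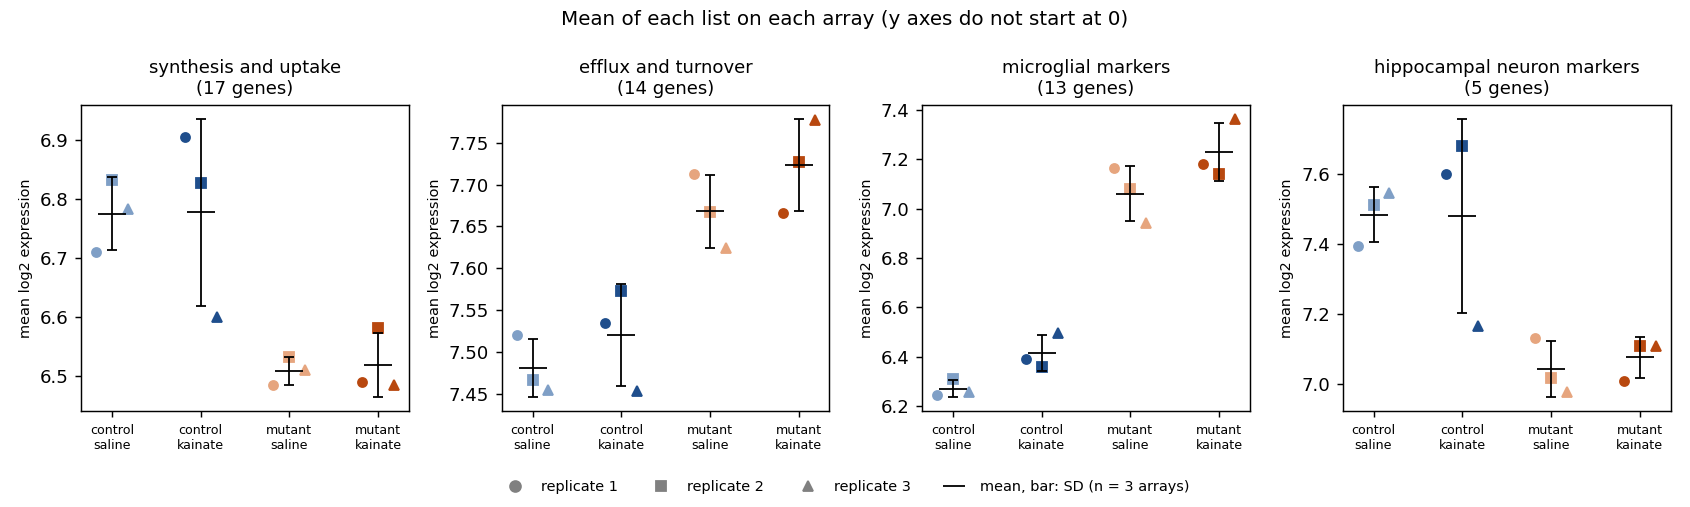
Mean log2 expression (y axes, which do not start at 0) of 4 gene lists on every array in the 4 groups, with the group mean and the SD of 3 arrays. As deposited, the synthesis means (6.58 or less against 6.60 or more) and the hippocampal neuron marker means are lower on all mutant arrays than on all control arrays. The efflux means (7.62 or more against 7.57 or less) and the microglial marker means (6.94 or more against 6.50 or less) are higher.

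Cell type markers moved with the same groups, and their part in these differences was not tested. The shares of all probe sets called for the averaged genotype difference were 0.419% higher and 0.193% lower. Of 13 measured microglial markers 8 were called higher in mutants and 0 lower (median 0.83). Their mean was 6.24 to 6.50 on control and 6.94 to 7.36 on mutant arrays. Of 11 astrocyte markers 9 were positive (median 0.14) and 1 passed, Gfap at 1.62. Their means were 8.70 to 9.42 in controls and 8.93 to 9.63 in mutants, lowest on the replicate 1 array of each group. On the replicate 1 arrays they were 8.70 and 8.71 in controls and 8.99 and 8.93 in mutants. On the replicate 2 and 3 arrays they were 9.21 to 9.42 and 9.48 to 9.63. All 5 measured markers of hippocampal neuron types were negative and 1 passed, Wfs1 at -1.04, with means of 7.16 to 7.68 in controls and 6.98 to 7.13 in mutants. Of 9 general neuron and 9 oligodendrocyte markers 0 passed in limma and 0 had an unadjusted p under 0.05 (medians -0.17 and -0.07). Some markers were dim, with means under the array medians of 4.23 to 4.47. Among the microglial ones these include Itgam, the lowest at 2.44, Cx3cr1 at 3.25 and Fcer1g at 3.27, and among the oligodendrocyte ones Cnp at 2.93. Prox1, 1 of the 5 hippocampal neuron markers, stood at 3.84. Little can be read from such probe sets.

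The kainate comparison asked whether these genes responded within 1 h. None of the 31 members passed in limma in controls (background 0.33% of probe sets called), in mutants (0.298%) or averaged over genotypes (0.942%). At an unadjusted p under 0.05 stood 3, 3 and 5 members, against 7.37%, 6.28% and 11.9% of all probe sets. Of the 6211 probe sets above the median level, where most members lay, 846, 694 and 1351 did. Signs were mixed: both genotypes were negative for 5 and positive for 7 of 17 synthesis genes, and negative for 5 and positive for 5 of 14 efflux genes, beside 25.0% and 26.5% of all probe sets. Of those above the median level 44.5% were negative in both and 25.4% positive in both. Within the synthesis list the widest averaged differences ran in opposite directions, -0.46 for Fdps against 0.43 for Dhcr7 and 0.33 for Hmgcs1.

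Fdps makes farnesyl diphosphate, where the sterol branch meets those for prenylated proteins and ubiquinone. Its levels were 9.19, 9.47 and 9.42 in control saline and 9.08, 8.75 and 8.84 in control kainate, then 9.02, 9.33 and 9.34 in mutant saline and 8.90, 8.61 and 8.83 in mutant kainate. In both genotypes all kainate arrays were below all saline arrays, as for 4.75% of all probe sets in controls and 7.39% in mutants. The difference, kainate minus saline, was -0.47 in controls and -0.45 in mutants, and averaged -0.46 (SE 0.09, adjusted p = 0.0519). It passed without control saline replicate 1 (adjusted p = 0.0455), control kainate replicate 1 (0.0248) or mutant saline replicate 1 (0.0318), and with the replicate 2 and 3 arrays alone (-0.63, adjusted p = 0.00873). In that last fit 199 probe sets were called higher and 579 lower for averaged kainate, against 66 and 51 in the main fit. The averaged difference of Fdps thus passed where many more probe sets did. The adjusted p values of Fdps spanned 0.00078 to 0.198 across alternatives, and 3 other Fdps probe sets gave -0.28, 0.04 and 0.03.

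Dhcr7, the reductase of the last step to cholesterol, stood at 6.82, 6.33 and 6.39 in control saline and 7.12, 7.14 and 7.02 in control kainate. In the mutants it read 6.73, 6.41 and 6.49 under saline and 6.62, 6.95 and 6.90 under kainate. The control groups did not overlap (background 2.29% of probe sets higher), and the mutant groups did. Averaged over genotypes, the difference was 0.43 (SE 0.10, adjusted p = 0.0935), from 0.58 in controls and 0.28 in mutants. It passed without control saline replicate 1 (0.50, adjusted p = 0.0304) and with the replicate 2 and 3 arrays alone (0.60, adjusted p = 0.00792), in a range of 0.000356 to 0.261 across alternatives. With those arrays alone 199 probe sets were called higher, against 66 in the main fit.

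In the efflux list the widest kainate differences were those of Abca1 (0.50, SE 0.13, adjusted p = 0.117), Lcat (0.28, SE 0.20, adjusted p = 0.816) and Lrp1 (-0.28, SE 0.08, adjusted p = 0.144). Abca1 differed by 0.33 in controls and 0.67 in mutants, where the arrays did not overlap (background 4.98% higher), and its second probe set stood at -0.29. Lrp1 read 9.06, 8.99 and 9.05 in control saline and 9.02, 8.64 and 8.67 in control kainate. In the mutants it read 9.09, 9.18 and 9.26 under saline and 8.97, 8.79 and 8.92 under kainate. Saline and kainate arrays overlapped in controls and lay apart in mutants. Its averaged difference passed without control kainate replicate 1 (-0.34, adjusted p = 0.0228) and with the replicate 2 and 3 arrays alone (-0.37, adjusted p = 0.0318). With those arrays alone 579 probe sets were called lower, against 51 in the main fit.

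The interaction asked whether the kainate difference itself was unlike in the genotypes. None of the 31 members passed in limma, 0 had an unadjusted p under 0.05 (0.861% of all probe sets had one), and the lowest adjusted p was 0.939. The estimates ran from -0.34 for Abcg1 to 0.38 for Sqle (SE 0.32), with 0.34 for Abca1 (SE 0.25) and -0.30 for Dhcr7 (SE 0.20). Sqle stood at 8.31, 8.72 and 8.55 in control saline and 8.40, 8.39 and 7.51 in control kainate, where replicate 3 was below the 11 other arrays, and between 7.89 and 8.30 on the mutant arrays. Errors of this size do not show that the genotypes responded alike.

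Further genes of the pathway were read from a list of 39 other sterol genes, of which 21 were measured. Averaged over treatments 2 of 21 passed, both higher in mutants, and 0 lower, where 0.419% of all probe sets were called higher. Srebf1, which encodes the SREBP form that mainly drives fatty acid synthesis and is itself an LXR target, stood at 7.30, 7.04 and 7.28 in control saline and 7.48, 7.21 and 7.10 in control kainate. The mutant arrays read 7.89, 7.80 and 7.95 under saline and 7.77, 7.91 and 8.05 under kainate, above all control arrays. It rose by 0.66 (SE 0.08, adjusted p = 0.00476), and passed in all 23 alternatives (adjusted p = 0.000599 to 0.0251).

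Clu, which encodes the lipid-carrying chaperone clusterin, stood at 11.80, 11.85 and 11.93 in control saline and 11.68, 11.46 and 11.61 in control kainate. In the mutants it read 12.18, 12.34 and 12.28 under saline and 12.04, 12.16 and 12.13 under kainate, above all control arrays. It rose by 0.47 (SE 0.06, adjusted p = 0.00476), a call lost in 1 of 23 alternatives, the replicate 2 and 3 arrays alone (adjusted p = 0.0565). Of 12 fatty acid genes under SREBP control 9 were measured and 0 passed in limma. Among the 9, 2 had an unadjusted p under 0.05, as did 5.98% of all probe sets. Gpam, the first enzyme of glycerolipid synthesis, stood at 0.31 (adjusted p = 0.146) and the desaturase Scd1 at -0.35. Under kainate alone the genotype difference of Clu was 0.53 (SE 0.08, adjusted p = 0.0325), a call kept in 10 of 23 alternatives (adjusted p = 0.00488 to 0.516). Averaged over genotypes, kainate called 0 genes of either of these lists in limma, where 0.942% of all probe sets were called. At an unadjusted p under 0.05 stood 4 of 21 sterol and 2 of 9 fatty acid genes, against 11.9% of all probe sets. Of the 6211 probe sets above the median level 1351 did.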

How the data were processed

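Hippocampal RNA was measured on 12 Affymetrix MG-U74A arrays, 3 per group, each a pool of 3 animals. The deposited values are log2 levels that the authors made with GCRMA in R 2.4.1, per the submitters' processing notes. GCRMA corrects background by probe sequence, normalises quantiles and summarises probe sets. Its version, and whether the arrays were processed together, are not given in the sources used here. The table held 12488 probe sets, and 66 control probe sets were left out. By the platform annotation 10833 probe sets had a single symbol, 396 several and 1193 none.

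A model with a mean for each group was fitted with limma 3.58.1 in R 4.3.3 (8 residual and 2.48 prior degrees of freedom). The 7 comparisons were tested two-sided, with Benjamini-Hochberg adjustment over all 12422 probe sets, no filter on level and a threshold of 0.05. The number of arrays limits the precision. The p-values measure the spread between the arrays of a group, which includes both the pools and the shift shared by the replicate 1 arrays. That shift was not modelled in the main fit. Levels on every array are given for members that passed, for the 4 of each list with the widest averaged genotype difference and for the 3 with the widest averaged kainate difference. Sqle was added after its values were seen. In all 23 alternatives were run, 2 of them in a form chosen after seeing the data. The members, lists and tests were chosen with earlier results of these data known.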

Additional observations from a re-analysis of the deposited data

How the results depend on the processing

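The 4 widest averaged genotype and 3 widest averaged kainate differences of each list kept their signs in all 23 alternatives, as did those of Cyp51 under kainate, Srebf1 and Clu. The list medians were computed under 4 of them. There the averaged genotype medians kept their signs, while small kainate medians did not: with the replicate 2 and 3 arrays alone the synthesis median went from 0.05 to -0.04 in controls and from 0.03 to -0.05 averaged, and without control kainate replicate 3 the averaged efflux median went from 0.01 to -0.03. The count of members called was 0 for kainate in controls, in mutants and averaged, 0 for the interaction and for genotype under saline, 1 for genotype under kainate and 2 for the averaged genotype effect. Array weights, estimated gene by gene because the usual iteration did not converge, gave 3, 7 and 11 members for the 3 kainate effects and 8, 3 and 10 for the 3 genotype effects. They also called 380, 1619 and 2036 probe sets for kainate against 41, 37 and 117, and 680, 99 and 478 for genotype against 17, 44 and 76. With the replicate 2 and 3 arrays alone, 1 member passed for kainate in controls and 3 averaged, while 0 passed for genotype under kainate and 0 averaged. Over all 12422 probe sets that fit called 46 higher and 100 lower for kainate in controls, and 199 and 579 averaged. For genotype it called 7 and 3 under kainate, and 34 and 13 averaged. Modelling replicate 1 as a batch gave 1 member for averaged kainate, and doing so without control kainate replicate 3 gave 2 there, 1 for genotype under saline, 2 under kainate and 5 averaged. The probe sets called for the same comparisons in these batch fits are not given here, so the member counts stand without a share. Probe sets above the median level gave 1 for averaged kainate and 0 for genotype under kainate. For genotype under kainate the count was also 0 with the replicate number as a block, with arrays centred on their medians, with a trend and robust prior, and with only the arrays compared. For the averaged genotype effect it was 0 with centred arrays, 1 with the trend and 1 with probe sets averaged per gene. Deviations of same-numbered arrays correlated at 0.368 to 0.848 for replicate 1, 0.302 to 0.583 for replicate 2 and -0.0109 to 0.621 for replicate 3, where the 2 pairs under 0.1 both hold control kainate replicate 3. Pairing was taken as given only where every pair was over 0.1, so the numbers were not used to pair arrays, though 11 of 12 arrays correlated best with 1 of their own number. The replicate block took Cyp51 under kainate to an adjusted p of 0.0774. It changed no other count of members, while averaged kainate went from 117 to 245 probe sets, genotype under saline from 17 to 30, under kainate from 44 to 67 and averaged from 76 to 124. Leaving out 1 array gave 0 to 2 members for averaged kainate, 0 to 1 for genotype under kainate and 1 to 3 for the averaged effect. In those fits the probe sets called were 27 to 56 and 26 to 51 for kainate in controls and mutants, 52 to 284 averaged, 8 to 20 and 12 to 38 for genotype under saline and kainate, and 41 to 103 averaged. Over the other alternatives the lowest counts were 22, 27, 62, 2, 5 and 47 in that order. The interaction went from 0 to 5 probe sets without control kainate replicate 3, 6 with the batch as well and 8 with weights, with 0 members in each. The cause of these shifts was not tested. Dim probe sets limit what can be read for Insig1 and Ch25h, with mean levels of 3.46 and 3.26. Apoc1 (3.97), Nr1h3 (4.21), Mvd (4.21) and Tm7sf2 (4.23) also lay under the median level of all probe sets.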
